A study of Mus musculus with 12 samples.

Results

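The genes described here are 34 genes of fatty acid oxidation and of the PPAR-alpha program, out of 55335 genes in the count table of the series. They were taken by symbol from a list written by hand that covers mitochondrial and peroxisomal beta-oxidation, ketone body enzymes and known PPAR-alpha targets, and each symbol had 1 row. All 34 passed the filter on low counts in liver and 29 did so in bone-marrow-derived macrophages (BMDMs).

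Long-chain fatty acids enter mitochondria through the carnitine shuttle and are then shortened in repeated cycles of dehydrogenation, hydration, a second dehydrogenation and thiolytic cleavage, while peroxisomes shorten very-long-chain fatty acids. PPAR-alpha, encoded by *Ppara*, is a nuclear receptor that is activated by fatty acids, pairs with RXR and drives many of these genes in the liver during fasting. In macrophages *Ppara* is low, and fatty acid oxidation is studied as a feature of alternatively activated cells.

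The series holds 12 RNA-seq libraries of male C57BL/6N mice, 3 in each of 4 groups, and the question asked of both tissues is how the loss of the TSH receptor gene *Tshr* in myeloid cells changes gene expression. The *Tshr* f/f mice carry a *Tshr* allele flanked by loxP sites (exon 10 to the stop codon) and no Cre, and serve as controls, while the *Tshr* f/f,Lyz2-Cre mice (*Tshr* MKO) are littermates in which Cre is made from the *Lyz2* locus, in macrophages and other myeloid cells, so hepatocytes are not a target of the deletion. BMDMs came from mice whose age the labels give as 6 weeks and the methods as a range from there, grew in M-CSF (10 ng/mL) for 7 days, and in both groups TSH (1 ng/mL) was added for 24 h, so no library without TSH enters. Livers came from mice that began a high-fat diet at 6 weeks of age, ate it for 9 weeks and, after an 8-h fast, received insulin (1.5 U/kg) for 5 min.

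Library totals were 33683981–40954211 counts in BMDMs and 28962878–40420513 in livers, so 3 counts in a library correspond to 0.0733–0.104 CPM (counts scaled to a library total), a limit that covers counting error only. *Tshr* had 0 counts in the 6 livers, and in BMDMs 2 counts in f/f replicate 3, 5 in MKO replicate 3 and 0 in the other 4, so it could not check the genotype at this depth. A supplementary receptor table of the study lists the counts of these liver libraries under the other genotype's heading for 72 of 72 values, 6 of which (a gene at 0) fit both headings. The groups below follow the labels, and every direction in liver rests on the livers labelled *Tshr* MKO and *Tshr* f/f. In those labelled *Tshr* MKO, 73 of 73 nuclear genes of oxidative phosphorylation were fitted above 0. Of the 6 macrophage markers, 5 were fitted below 0 and 1 above 0 in these livers, with a median log2 fold change of −0.29. The lowest was *Itgam* (log2 fold change −1.06, SE 0.70), *Adgre1* was at −0.25 (SE 0.50) and *Lyz2* at 0.20 (SE 1.10). All 6 had an adjusted p over 0.05, and the sums of the 6 markers overlapped between the liver groups. The 6 hepatocyte markers (*Alb*, *Apoa1*, *Ttr*, *Tat*, *Cyp2e1*, *Cps1*) summed to 75558–101111 CPM in livers and 0–0.0783 in BMDMs, and the 6 macrophage markers to 113–292 CPM in livers and 14574–29153 in BMDMs, so the labelled tissues carry their defining markers. The macrophage sum was 19775–29153 CPM in *Tshr* MKO BMDMs and 14574–17299 CPM in *Tshr* f/f BMDMs. *Lyz2*, whose locus carries Cre, made up that gap, at 14540–22320 against 8773–9843 CPM, and the other 5 markers summed to 5238–6832 against 5703–8525 CPM and overlapped. *Tshr* f/f replicate 3 of the BMDMs had a normalization factor of 0.738, against 0.993–1.114 in the other 5. Markers of other cell types were uneven. BMDM f/f replicate 2 had neutrophil markers at 364 CPM, against 16.3–113 in the other 5, and stellate cell or fibroblast markers at 1762, against 378–733. Liver f/f replicate 1 had endothelial markers at 38.4 CPM, against 91.8–142 in the other 5 livers. Its stellate cell or fibroblast markers were at 32.4 CPM, against 110–269, and its neutrophil markers at 43.8, against 5.21–18.9. BMDM MKO replicate 3 had Kupffer cell markers at 64.8 CPM, against 229–505 in the other 5 BMDM libraries. Whether the marker levels have a part in the results was not tested. Values without f/f replicate 2 or 3 of the BMDMs are given with the results. In bulk samples, fewer cells of a type and less RNA per cell cannot be told apart.

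The sequences that precede the start of 3 genes with low values in the livers labelled *Tshr* MKO (*Cpt1a*, *Pdk4* and *Fgf21*) and of *Hadha* are printed here, because PPAR-alpha and RXR bind direct repeats of AGGTCA spaced by 1 base. Each run is the 250 bases before the RefSeq start (GRCm38.p6), 5′ to 3′ on the gene's strand, with every copy of AGGTCA on either strand in capitals. *Cpt1a* lies at chr19:3323051-3323300 (plus strand), *Pdk4* at chr6:5496279-5496528 (minus), *Fgf21* at chr7:45615491-45615740 (minus) and *Hadha* at chr5:30154981-30155230 (minus).
Cpt1a: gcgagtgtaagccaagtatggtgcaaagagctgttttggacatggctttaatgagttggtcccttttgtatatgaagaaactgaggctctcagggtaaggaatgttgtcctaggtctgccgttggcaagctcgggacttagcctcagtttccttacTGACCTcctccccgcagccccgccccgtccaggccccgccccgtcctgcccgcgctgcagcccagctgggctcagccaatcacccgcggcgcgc
Pdk4: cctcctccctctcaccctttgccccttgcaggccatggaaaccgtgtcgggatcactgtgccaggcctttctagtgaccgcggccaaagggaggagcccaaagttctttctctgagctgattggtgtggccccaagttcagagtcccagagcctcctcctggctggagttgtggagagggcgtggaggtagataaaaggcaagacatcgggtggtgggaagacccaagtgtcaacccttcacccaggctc
Fgf21: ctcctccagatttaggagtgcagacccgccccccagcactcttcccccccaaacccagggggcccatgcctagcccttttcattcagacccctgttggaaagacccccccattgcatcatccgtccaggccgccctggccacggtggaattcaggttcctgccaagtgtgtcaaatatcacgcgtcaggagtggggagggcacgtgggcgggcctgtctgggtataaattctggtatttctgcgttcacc
Hadha: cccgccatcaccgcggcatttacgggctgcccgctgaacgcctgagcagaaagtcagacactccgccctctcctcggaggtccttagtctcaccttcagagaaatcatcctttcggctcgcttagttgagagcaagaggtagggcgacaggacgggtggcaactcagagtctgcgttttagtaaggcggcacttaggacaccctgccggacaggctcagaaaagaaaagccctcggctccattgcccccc
The only copy of AGGTCA in these 4 runs is in *Cpt1a*, on the strand opposite the gene, where it begins 94 bases before the start. *Hadha* and *Hadhb*, which encode both subunits of the mitochondrial trifunctional protein, are transcribed away from each other from starts 273 bases apart, so their windows share 228 bases. A window was given for 27 of the 34 genes (29 windows). AGGTCA on either strand was in 5 of the 29 and in 14% of the 32851 RefSeq windows, and the repeat AGGTCANAGGTCA with up to 2 mismatches was in 3 of 29 and in 3.24% of all. Those 3 were *Echs1* (AGGTCACGGGTCC, 83 bases before the start), *Etfa* (TTACCTTTGCCCT, 77 bases before, read on the opposite strand) and *Acot4* (TGACCTTTGGCCG, 13 bases before, read on the opposite strand), and 0 of the 29 windows held it with 1 mismatch or less. A match is a run of letters and not a known site, and binding sites outside these windows were not searched.

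All 34 genes had higher levels in the livers than in the BMDMs of *Tshr* f/f mice, and all 34 passed an adjusted p under 0.05 (edgeR quasi-likelihood test), where 36.6% of the 17246 genes tested were higher in liver. The median log2 difference was 4.80, also with *Fgf21*, which had 0 counts in BMDMs, set to a bound against 3 counts. The difference was smallest for *Acaa1a*, a peroxisomal thiolase, at 2.21 (SE 0.13), and was 10.07 (SE 0.91) for *Ehhadh*, the peroxisomal bifunctional enzyme.

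Levels between genes are compared per kilobase of transcript. In *Tshr* f/f livers the peroxisomal thiolase *Acaa1b* had the highest mean, at 666 ± 306 CPM per kilobase (SD, n = 3), followed by the mitochondrial thiolase *Acaa2* at 588 ± 25.6, and those means differed by less than the spread of *Acaa1b*. The lowest were *Pdk4* at 3.10 ± 0.96 and *Acot3* at 2.24 ± 1.66. *Ppara* itself stood at 56.0 ± 3.5, in place 27 of 34. In *Tshr* f/f BMDMs the order was led by *Acaa1a* at 42.0 ± 1.4 CPM per kilobase, *Acadl*, the long-chain acyl-CoA dehydrogenase, at 28.1 ± 7.9 and *Etfa* at 24.9 ± 4.2. *Cpt1a*, the outer membrane carnitine palmitoyltransferase that limits entry of long-chain fatty acids, was at 274 ± 48.9 in livers and 17.4 ± 6.2 in BMDMs.

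**Figure D1:**
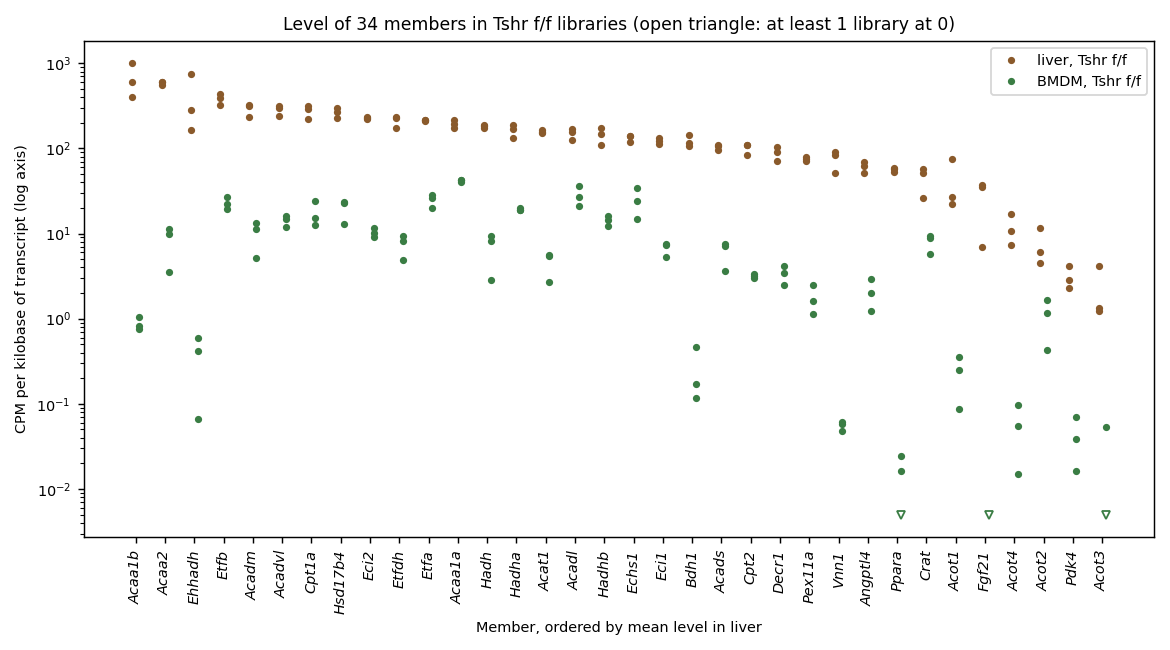
Level of the 34 genes in the 3 liver and 3 BMDM libraries of *Tshr* f/f mice, in CPM per kilobase of transcript on a log axis, ordered by the mean in liver. Each point is a library, and an open triangle marks a gene with at least 1 library at 0. Liver points lie above BMDM points for all 34 genes.

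The following 5 genes were under the filter in BMDMs and received no test there. *Fgf21*, a secreted fasting hormone of the liver, had 0 counts in the 6 libraries. *Ppara* counts were 3, 5 and 0 with *Tshr* f/f and 2, 5 and 0 with *Tshr* MKO. *Acot3*, a peroxisomal acyl-CoA thioesterase, had 11 counts in *Tshr* f/f replicate 2 and 0 in the other 5. *Pdk4*, the kinase that switches off pyruvate dehydrogenase when fat is burnt, had 13, 8 and 2 counts against 6, 7 and 2. *Vnn1*, a pantetheinase, had 8, 7 and 5 counts against 0, 3 and 3. *Ppara* and *Pdk4* overlapped between genotypes, and the *Vnn1* counts did not.

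In liver, 13 of the 34 genes were fitted above 0 and 21 below 0 in the livers labelled *Tshr* MKO, where 50.9% of the 15062 genes tested were below 0, and the median log2 fold change of the 34 was −0.07 against −0.01 for all genes. Without f/f replicate 3 the median was 0.05, with 18 genes above and 16 below 0. An adjusted p under 0.05 was reached by 0 of the 34 (0% of all genes) with the edgeR test, and by 1, *Fgf21*, with DESeq2, which called 269 genes in all (1.79%). At an unadjusted p under 0.05, *Eci1* was higher (1 of 34, against 5.27% of all genes) and *Pdk4*, *Fgf21* and *Cpt1a* were lower (3 of 34, against 5.18%). The groups did not overlap, with higher values in MKO, in *Eci1*, *Echs1* and *Acaa2* (3 of 34, against 9.6%), and with lower values in *Pdk4* and *Cpt1a* (2 of 34, against 7.74%). These shares lie near those of all genes.

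The receptor and carnitine shuttle came first. *Ppara* was at 145, 131 and 148 CPM in the livers labelled *Tshr* f/f and at 106, 98.5 and 136 in those labelled *Tshr* MKO, so that the groups overlapped through MKO replicate 3 (log2 fold change −0.32, SE 0.14, adjusted p = 0.492). *Cpt1a* was at 1018, 696 and 912 CPM against 637, 566 and 634, with all 3 MKO values under the lowest f/f value (−0.52, SE 0.16, adjusted p = 0.370). *Cpt2*, the inner membrane partner of *Cpt1a*, was at 178 ± 26.8 (SD) against 169 ± 11.6 CPM (−0.08, SE 0.13). *Crat*, carnitine acetyltransferase, was at 161, 82.0 and 178 CPM against 98.3, 97.8 and 101. The MKO values of *Crat* lay within 4 CPM of each other, between f/f replicate 2 and the other f/f livers (−0.50, SE 0.27, adjusted p = 0.562).

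Among the genes outside oxidation that PPAR-alpha drives, *Pdk4* was at 6.06, 7.20 and 10.7 CPM in the livers labelled *Tshr* f/f and at 4.27, 4.19 and 4.64 in those labelled *Tshr* MKO. The groups did not overlap (−0.87, SE 0.24, adjusted p = 0.336). *Fgf21* was at 25.0, 4.80 and 25.8 CPM against 3.88, 4.81 and 3.36, so that f/f replicate 2 stood with the MKO livers and the other f/f livers lay above all the rest (−2.20, SE 0.60, adjusted p = 0.346). *Angptl4*, a secreted inhibitor of lipoprotein lipase, was at 171, 152 and 124 CPM against 172, 116 and 153. *Vnn1* was at 151, 90.4 and 161 CPM against 128, 122 and 238. The groups overlapped in both of these.

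Differences in the mitochondrial cycle were small. The 4 acyl-CoA dehydrogenases (*Acadm*, *Acadl*, *Acadvl*, *Acads*), which take the first step for chains of different length, had log2 fold changes from −0.13 to 0.18, and the 3 electron transfer genes (*Etfa*, *Etfb*, *Etfdh*), which pass those electrons to ubiquinone, from −0.17 to 0.11. *Hadha* was at 507, 387 and 562 CPM against 401, 400.4 and 428, with the MKO values between f/f replicate 2 and the other f/f livers (−0.24, SE 0.15, adjusted p = 0.621). *Hadhb* was at 216 ± 49.9 (SD) against 197 ± 12.6 CPM, and 52.8% of its 100-base windows also occur in a second gene of the annotation, so its counts are uncertain. *Hadh*, the short-chain 3-hydroxyacyl-CoA dehydrogenase, was at 236, 249.7 and 241 CPM against 332, 249.5 and 315 (0.30, SE 0.13, adjusted p = 0.484). *Eci1*, which shifts double bonds of unsaturated chains so that they can enter the cycle, was at 96.9, 101 and 111 CPM against 130.5, 125 and 146, with all MKO values above all f/f values (0.37, SE 0.10, adjusted p = 0.336). The hydratase *Echs1* (0.24, SE 0.11) and the thiolase *Acaa2* (0.20, SE 0.11) also did not overlap between groups.

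Several peroxisomal and thioesterase genes varied widely among the livers labelled *Tshr* f/f. *Ehhadh* was at 635, 359 and 1646 CPM in these and at 367, 502 and 443 in those labelled *Tshr* MKO (−1.01, SE 0.53, adjusted p = 0.553), so the lowest and the highest of the 6 were both f/f livers. *Acaa1b* was at 502, 746 and 1241 CPM against 1221, 1077 and 1204 (0.49, SE 0.31, adjusted p = 0.621). *Acot1*, a cytosolic acyl-CoA thioesterase, was at 46.2, 36.6 and 124 CPM against 37.4, 55.9 and 53.3, and its log2 fold change of −0.50 (SE 0.46) became 0.235 without f/f replicate 3. *Acot3* was at 3.18, 3.36 and 10.5 CPM against 9.72, 4.43 and 9.31. *Acaa1a* and *Acaa1b* share 21.6% and 22.6% of their 100-base windows with each other and *Acot1*, *Acot2* and *Acot3* share 14.3–21.9% with other genes, so reads may have been split between them. *Acaa1a*, *Hsd17b4* and *Pex11a* had log2 fold changes between −0.15 and 0.09, and the ketone body enzymes *Acat1* and *Bdh1* of 0.06 and 0.00.

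The f/f livers differed more from each other than the MKO livers did. *Tshr* f/f replicate 2 had the lowest value of the 6 livers in 21 of the 34 genes, against 17.4% of all genes tested, and f/f replicate 3 the highest in 19, against 14.4%. The SD over the mean was larger in f/f livers in 24 of 34 genes (70.6%, against 61.8% of all genes). Its median over the 34 genes was 15.5% in f/f and 7.94% in MKO livers, against 16.6% and 13.6% over all genes. Without f/f replicate 2, 9 genes were lower at an unadjusted p under 0.05 (*Ppara*, *Cpt1a*, *Crat*, *Etfdh*, *Hadha*, *Hadhb*, *Ehhadh*, *Pdk4* and *Fgf21*), against 7.57% of all genes, and 1 was higher (*Eci1*), against 6.35%, and *Fgf21* stood at −2.66 (SE 0.18, adjusted p = 0.0255 by edgeR). *Ehhadh* stood at −1.39 (SE 0.39, adjusted p = 0.212) without f/f replicate 2 and at −0.19 without f/f replicate 3. Without f/f replicate 3, *Eci1*, *Acaa1b* and *Acot3* were higher (3.41% of all genes) and *Cpt1a*, *Pdk4* and *Fgf21* lower (3.85%) at that limit. *Cpt1a*, *Pdk4* and *Fgf21* were lower and *Eci1* higher at an unadjusted p under 0.05 with each of the 6 livers left out. How many of all genes passed in every such run was not counted. Under the other alternative settings 2 to 4 of the 34 genes were lower at that limit (560 to 880 of all genes).

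**Figure D2:**
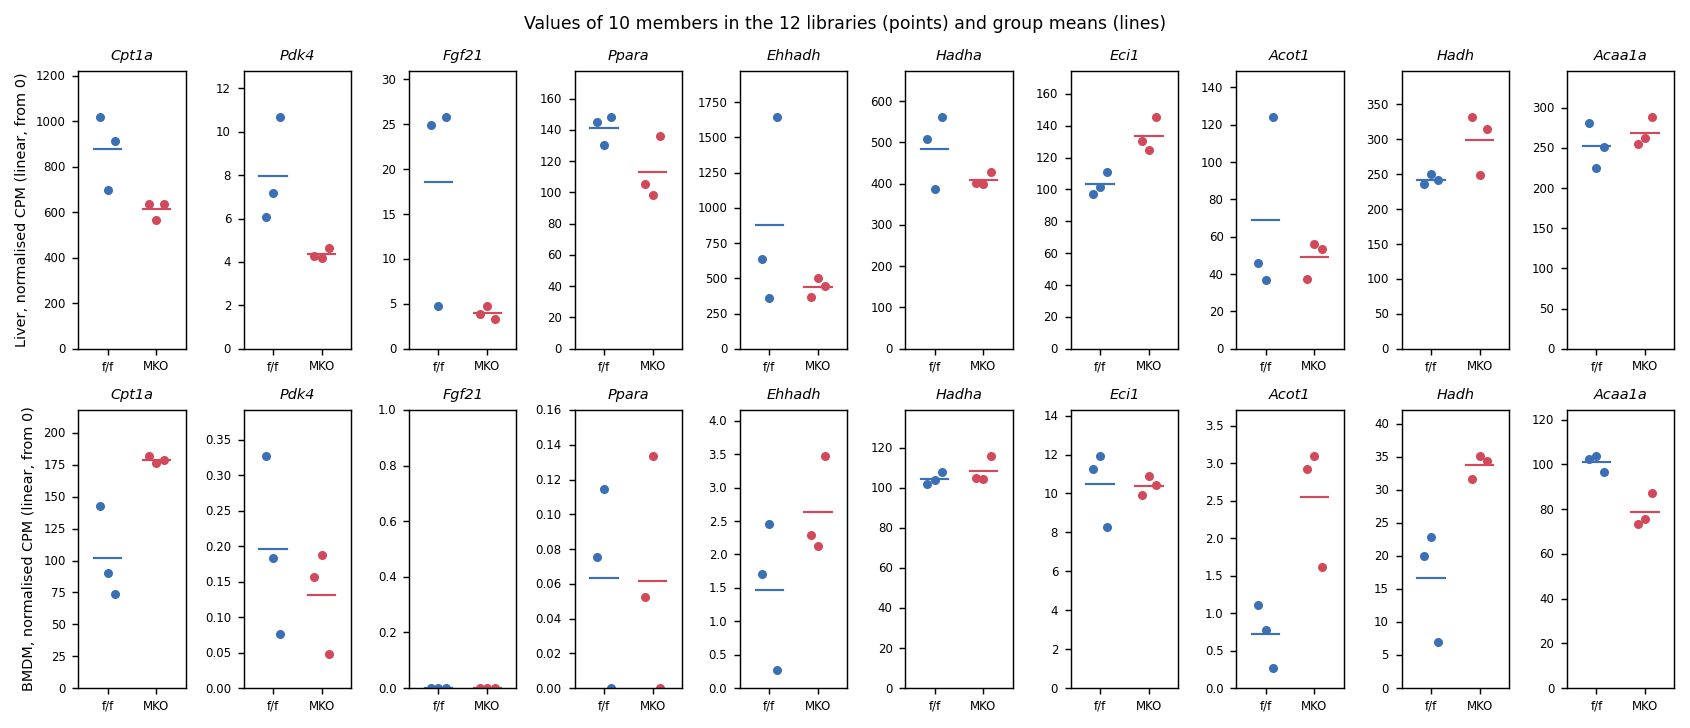
Normalised CPM of 10 genes in the 12 libraries, with livers in the upper row and BMDMs in the lower row, *Tshr* f/f in blue and *Tshr* MKO in red. Points are libraries in the order of replicates 1 to 3, lines are group means, and each axis is linear from 0 with its own scale. The livers labelled MKO lie close together in *Cpt1a* (566–637 CPM), whereas *Ehhadh* in f/f livers runs from 359 to 1646 CPM.

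Turning to BMDMs, 21 of the 29 genes tested were fitted above 0 and 8 below 0 in *Tshr* MKO, where 50.8% of the 15372 genes tested were above 0, and the median log2 fold change of the 29 was 0.31 against 0.01 for all genes. The 29 are those over the filter and not all members. With the edgeR test 0 of the 29 had an adjusted p under 0.05 (0% of all genes), and with DESeq2 1 had, *Acot1*, among 1223 genes in all (7.96%). At an unadjusted p under 0.05, 9 of 29 were higher (*Acot1*, *Crat*, *Cpt1a*, *Etfb*, *Cpt2*, *Acads*, *Acaa2*, *Hadh* and *Acot2*), against 7.73% of all genes, and 1 was lower (*Acaa1a*), against 10.2%. The groups did not overlap, with higher MKO values, in 12 of 29 genes, against 14.8% of all genes, namely these 9 with *Hsd17b4*, *Decr1* and *Acadm*. They did not overlap, with lower MKO values, in *Acaa1a* and *Acaa1b* (2 of 29, against 14%).

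All 3 carnitine shuttle genes had separate groups. *Cpt1a* levels were 142, 90.3 and 73.7 CPM with *Tshr* f/f and 182, 176 and 179 with *Tshr* MKO, where the values lay within 6 CPM of each other (log2 fold change 0.81, SE 0.25, adjusted p = 0.230). *Crat* was at 53.6, 51.2 and 33.0 CPM against 69.6, 68.2 and 78.2 (0.65, SE 0.20, adjusted p = 0.229). *Cpt2* was at 10.7, 10.5 and 9.79 CPM against 12.4, 14.5 and 14.2 (0.41, SE 0.14, adjusted p = 0.249). For *Cpt1a* and *Crat* the lowest of the 6 values was that of f/f replicate 3.

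Several short- and medium-chain steps of the mitochondrial cycle showed the same placing of f/f replicate 3. *Hadh* was at 19.9, 22.8 and 6.99 CPM against 31.7, 35.0 and 34.3 (1.02, SE 0.41, adjusted p = 0.269), and *Acaa2* at 20.5, 23.8 and 7.30 CPM against 33.1, 33.9 and 39.6 (1.05, SE 0.41, adjusted p = 0.265). *Acads*, the short-chain dehydrogenase, was at 18.9, 18.3 and 9.33 CPM against 30.1, 24.1 and 25.6 (0.78, SE 0.28, adjusted p = 0.257). In these 3 genes f/f replicate 3 lay under the other f/f libraries, which in turn lay under all MKO libraries. *Acadm*, the medium-chain dehydrogenase, had the same order of groups (0.58, SE 0.33), whereas *Acadl* was at 69.3, 55.7 and 95.2 CPM against 56.1, 61.0 and 59.0 and overlapped (−0.32, SE 0.21). *Decr1*, which handles polyunsaturated chains, was at 13.5 ± 3.3 (SD) against 18.4 ± 0.53 CPM (0.45, SE 0.20). The hydratase *Echs1* was at 51.6, 74.3 and 31.0 CPM against 61.9, 68.0 and 58.2 and overlapped, with its lowest and its highest value both in f/f libraries.

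Both trifunctional protein genes overlapped between genotypes in BMDMs. *Hadha* levels were 101.7, 104 and 108 CPM with *Tshr* f/f and 105, 105 and 116 with *Tshr* MKO, which overlapped (0.05, SE 0.12). *Hadhb* was at 39.9 ± 6.0 (SD) against 42.5 ± 3.0 CPM. *Etfb*, a subunit of the electron transfer flavoprotein, was at 32.9, 24.2 and 26.8 CPM against 38.3, 38.6 and 36.6 (0.44, SE 0.14, adjusted p = 0.233), and 65.2% of its 100-base windows occur in a second gene of the annotation. Its partner *Etfa* was at 47.2 ± 7.6 against 44.8 ± 0.72 CPM and overlapped.

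Fitted changes of peroxisomal genes had both signs in BMDMs. *Acaa1a* levels were 103, 104 and 96.6 CPM against 73.2, 75.7 and 87.1 (−0.36, SE 0.12, adjusted p = 0.241), and it was the only member lower at an unadjusted p under 0.05. *Acaa1b*, at 1.73–2.39 CPM against 1.38–1.69, had a log2 fold change of −0.37 (SE 0.27). *Hsd17b4*, the peroxisomal D-bifunctional protein, was at 83.3, 86.2 and 47.8 CPM against 104, 98.7 and 128 (0.61, SE 0.25, adjusted p = 0.280). *Ehhadh* was low, at 1.71, 2.45 and 0.269 CPM against 2.30, 2.13 and 3.47 (0.82, SE 0.69, adjusted p = 0.539), and overlapped.

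Among the thioesterases, which free fatty acids from coenzyme A, *Acot1* was at 1.10, 0.779 and 0.269 CPM against 2.92, 3.09 and 1.61 (1.80, SE 0.54, adjusted p = 0.225), the largest fitted fold change of the 29 genes. *Acot2*, its mitochondrial counterpart, was at 4.97, 3.50 and 1.27 CPM against 8.20, 7.17 and 6.43 (1.15, SE 0.47, adjusted p = 0.272). Both share windows with each other, as given for liver. *Angptl4* was at 5.47, 9.25 and 13.2 CPM against 10.1, 10.0 and 7.76, so that f/f libraries were both the lowest and the highest.

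*Tshr* f/f replicate 3 had the lowest value of the 6 BMDM libraries in 20 of the 29 genes, against 36.1% of all genes tested. Without it 11 of 29 genes were higher (7.85% of all genes) and 1 lower (7.4%) at an unadjusted p under 0.05, and the log2 fold changes fell to 0.62 (SE 0.21) in *Cpt1a*, 0.46 (SE 0.10) in *Crat*, 0.66 (SE 0.11) in *Hadh*, 0.68 (SE 0.12) in *Acaa2*, 0.52 (SE 0.13) in *Acads*, 0.38 (SE 0.14) in *Hsd17b4* and 0.34 (SE 0.33) in *Ehhadh*. For *Acot1* the value without it was 1.44 (SE 0.42). The median log2 fold change of the 29 was then 0.16. Leaving out *Tshr* MKO replicate 1, 2 or 3 left 4, 3 and 3 genes higher at that limit, against 3.55%, 4.35% and 5.96% of all genes, and *Cpt1a* and *Acot1* were among them each time. Without f/f replicate 2, 8 genes were higher (10.8% of all genes) and 2 lower (14.7%), and *Cpt1a* was not past the limit (0.73, SE 0.29, unadjusted p = 0.0507 by edgeR). *Acaa1a* was not past the limit without f/f replicate 1, MKO replicate 1 or MKO replicate 2. The SD over the mean was larger in f/f BMDMs in 25 of 29 genes (86.2%, against 72.4% of all genes).

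**Figure D3:**
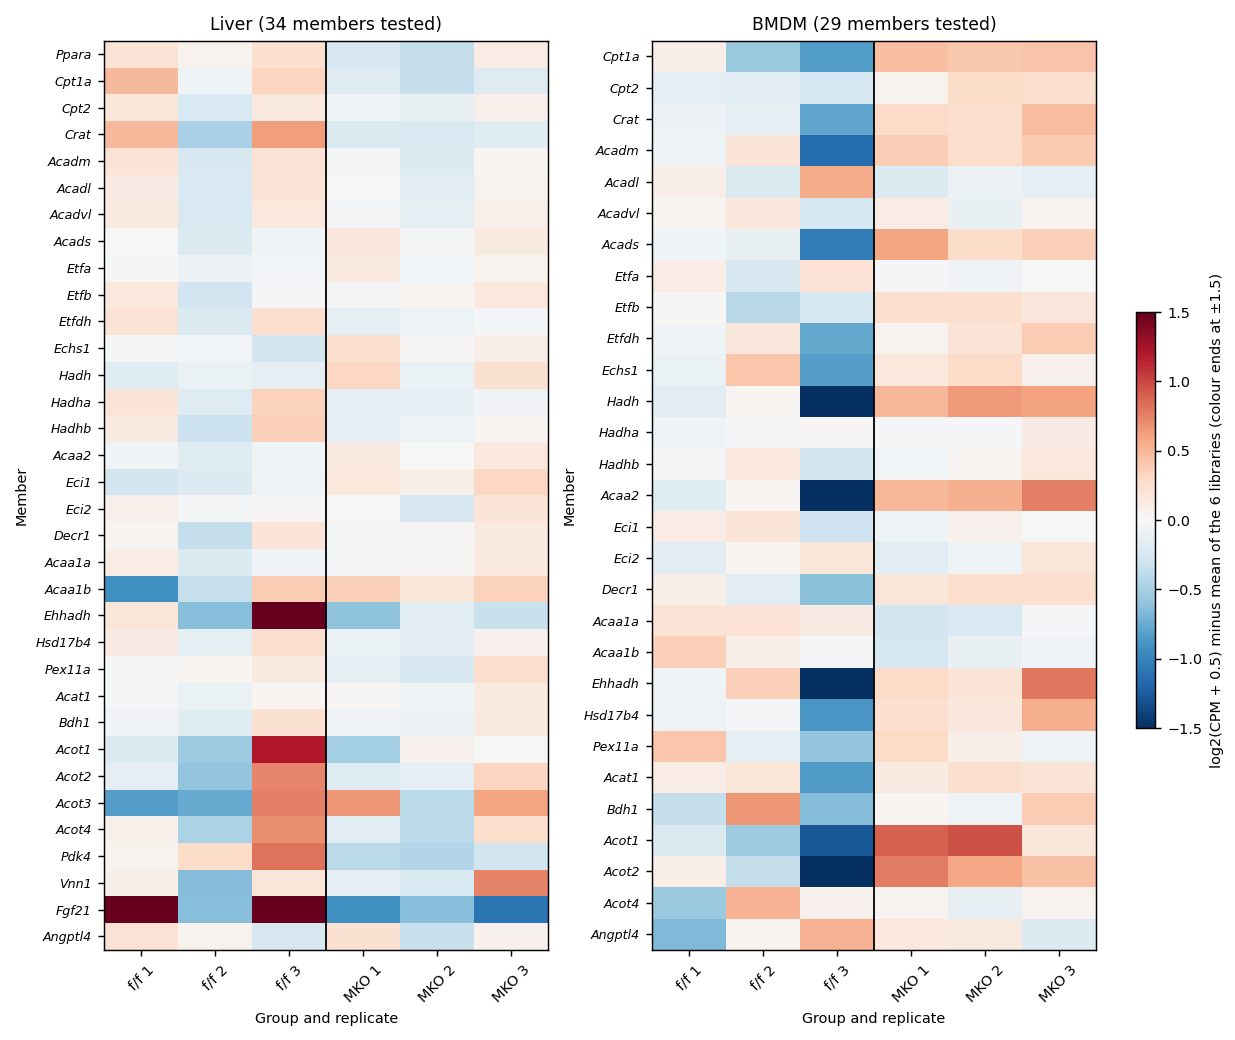
Deviation of each library from the mean of the 6 libraries of its tissue, as log2(CPM + 0.5), for the 34 genes tested in liver and the 29 tested in BMDMs. Red is above and blue below the mean, colours end at ±1.5, and the black line divides *Tshr* f/f from *Tshr* MKO. The column of BMDM f/f replicate 3 is the lowest in 20 of 29 genes, and that of liver f/f replicate 2 in 21 of 34.

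The genotype effect was then compared between tissues in a fit of all 12 libraries. Of the 29 genes tested in both tissues, 14 were fitted above 0 in BMDMs and below 0 in liver, 7 above 0 in both, 4 below 0 in both and 4 below 0 in BMDMs and above 0 in liver. The same joint count was not made over all genes, so these numbers do not show opposite effects. Of all genes tested, 50.8% were above 0 in BMDMs and 50.9% below 0 in liver. With edgeR the difference passed an adjusted p under 0.05 in 0 of the 34 genes (0.0058% of 17246 genes), and with DESeq2 it did so in 2, *Cpt1a* and *Acot1*, against 4.49% of all genes. The 34 include the genes under the filter in BMDMs, which passed the filter over all 12 libraries. Few BMDM counts leave their difference undecided, and *Fgf21*, with 0 counts there, had an SE of 5411. At an unadjusted p under 0.05 the effect was lower in liver than in BMDMs in 5 genes (7.12% of all genes) and higher in 2 (7.42%). The 5 were *Cpt1a* (difference of log2 fold changes −1.32, SE 0.33, adjusted p = 0.160), *Crat* (−1.15, SE 0.37, adjusted p = 0.236), *Acot1* (−2.26, SE 0.73, adjusted p = 0.236), *Cpt2* (−0.48, SE 0.19, adjusted p = 0.285) and *Hsd17b4* (−0.75, SE 0.31, adjusted p = 0.313). All 3 carnitine shuttle genes of the 34 were among them. *Slc25a20*, the carrier of the shuttle and not 1 of the 34, had a log2 fold change of 0.01 (SE 0.13) in liver and 0.09 (SE 0.13) in BMDMs. The 2 with a higher effect in liver were *Acaa1a* (0.45, SE 0.18) and *Vnn1* (2.03, SE 0.78), and *Vnn1* rests on 0–8 counts a library in BMDMs. Without BMDM f/f replicate 1 the difference in *Cpt1a* was −1.65 (edgeR adjusted p = 0.0398), and without BMDM f/f replicate 3 it was −1.14 (adjusted p = 0.136).

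**Figure D4:**
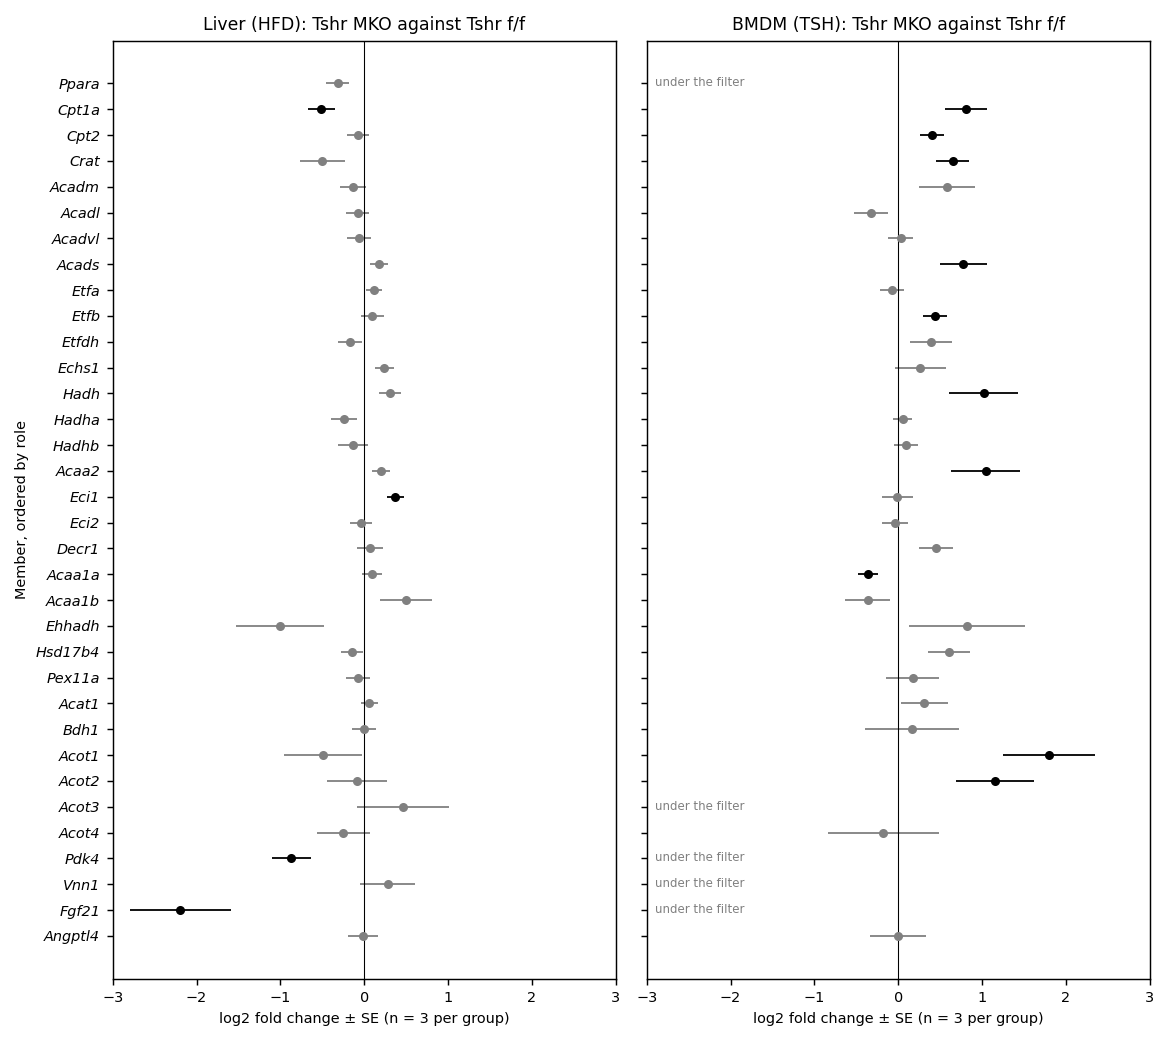
Log2 fold change of *Tshr* MKO against *Tshr* f/f with its SE for each gene in liver (left) and BMDMs (right), ordered by role, from 3 libraries a group. Black marks an unadjusted p under 0.05, and no gene passed an adjusted p under 0.05. *Cpt1a* lies at −0.52 in liver and 0.81 in BMDMs.

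Other genes of these pathways, from a longer list, were counted in the same fits. In liver 60 of 62 were tested, of which 10 were higher and 2 lower at an unadjusted p under 0.05 (5.27% and 5.18% of all genes), with 0 at an adjusted p under 0.05 and a median log2 fold change of −0.01. They included *Fabp1*, the liver fatty acid binding protein (0.47, SE 0.14), and *Cpt1b*, the muscle-type form of the *Cpt1a* enzyme, which was lower (−0.97, SE 0.28, adjusted p = 0.347). In BMDMs 48 were tested, 9 were higher and 1 lower (7.73% and 10.2% of all genes), and the median was 0.38. *Plin2*, which coats lipid droplets, was among those higher (0.82, SE 0.24, adjusted p = 0.222), and *Acsl1*, an acyl-CoA synthetase, was the one lower (−2.81, SE 0.35, adjusted p = 0.218). *Cpt1b* was also among those higher, at 0.301, 0.160 and 0.154 CPM against 2.40, 0.240 and 2.34 (2.98, SE 0.89, adjusted p = 0.225).

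Of 20 partners and relatives of PPAR-alpha, 20 were tested in liver, with 0 higher and 2 lower at an unadjusted p under 0.05 (against the same 5.27% and 5.18%), *Ppargc1b*, a coactivator (−0.74, SE 0.28), and *Fgfr4* (−0.52, SE 0.20). In BMDMs 16 were tested, with 6 higher and 1 lower (against 7.73% and 10.2%). Those higher included *Pparg*, a relative of *Ppara* (2.71, SE 0.92, adjusted p = 0.240), and *Rxra*, the partner receptor (0.83, SE 0.17, adjusted p = 0.218). *Pparg* was at 11.25, 1.03 and 1.77 CPM with *Tshr* f/f against 33.5, 41.3 and 17.7 with *Tshr* MKO. *Ppard*, another relative, was at 39.99, 40.35 and 126 CPM against 31.8, 25.2 and 43.4 (−1.04, SE 0.50, adjusted p = 0.323). The 73 nuclear genes of oxidative phosphorylation, which use the electrons that beta-oxidation yields, were all fitted above 0 in liver (56 at an unadjusted p under 0.05, against 5.27% of all genes, 0 at an adjusted p under 0.05, median 0.33), and in BMDMs 28 were above and 45 below 0 (median −0.05). Of 20 fatty acid synthesis genes, 0 were higher and 2 lower in liver (*Fasn* and *Elovl3*) at an unadjusted p under 0.05, against 5.27% and 5.18% of all genes. In BMDMs 0 were higher and 1 lower of 17 (*Dgat2*), against 7.73% and 10.2%. In both tissues 0 reached an adjusted p under 0.05. The part of these lists in the results above was not tested.

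Over the 6 livers, the genes whose log2 CPM followed *Ppara* most closely were *Cdc42bpg* (Pearson r = 0.99), *Rab21* (0.99), *Fermt1* (0.99), *Stard13* (0.99) and *Ypel2* (0.98), given as a description chosen from all genes tested over 6 points that share their libraries. *Ypel2*, for example, was at 24.0, 18.4 and 22.9 CPM in the livers labelled *Tshr* f/f and at 11.9, 8.45 and 18.2 in those labelled *Tshr* MKO, with the same order within each group as *Ppara* apart from f/f replicates 1 and 3.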

How the data were processed

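RNA was sequenced from 12 libraries (strand-specific, 3 a group), and the authors deposited 1 table of raw read counts per gene, the unit used here. The study's methods name Skewer and FastQC v0.11.2, and the submitters' processing notes name STAR, StringTie and mm10 with no role given. The counting program and its annotation are not given in the sources used here. The study compared groups with the MARS model of DEGseq, which was not used here because it models random sampling of reads and not the spread between replicates. Groups were taken from the labels. The study's methods give 3 mice a group, and the labels do not tie a library to a mouse. No 2 libraries of a group differed by as little as sampling noise. BMDM MKO replicates 1 and 2 were the closest, with a chi-square of counts per degree of freedom of 11.5. The other BMDM pairs within a group had 85.3 to 474, and the liver pairs 37.6 to 195.

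Counts were tested with edgeR 4.0.16 in R 4.3.3 (TMM factors, filterByExpr, robust glmQLFit, glmQLFTest), within each tissue for genotype (MKO minus f/f) and over all 12 libraries for the difference between tissues and for liver against BMDM. P-values were adjusted by Benjamini-Hochberg over all genes tested, and the SE is the log2 fold change over the square root of F. CPM values use counts of the genes tested and TMM factors of the tissue. Values per kilobase use factors over all 12 libraries and the longest coding transcript of GENCODE M21 (GRCm38). Shared sequence was counted as 100-base windows of that transcript found in other genes. Scripts were tested on simulated counts.

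Alternatives were RLE, upper-quartile and no scaling factors, filters set to none or to a mean count of 50 or more, DESeq2 1.42.0, the replicate number as a block, all 12 libraries in a fit, the first letter of the sample code, and each library left out. Genes given library by library were the 6 with the lowest p in each tissue, *Ppara*, *Cpt1a*, *Hadha*, *Ehhadh*, *Pdk4*, *Fgf21* and *Angptl4*, and those under the filter. Others were named after their values were seen. The genes and lists were chosen with earlier results of these data known. Figures were drawn with matplotlib 3.10.9.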

Additional observations from a re-analysis of the deposited data

How the results depend on the processing

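With 3 libraries a group, a change of 1 on the log2 scale in these genes can be missed, and a p that misses the threshold does not show that values were equal. Genes described singly with a fold change and SE kept their direction under each alternative run, except *Acot1* in liver. *Angptl4* changed sign in both tissues. Of the genes given without an SE, *Acot2*, *Acot4*, *Bdh1*, *Decr1*, *Eci2*, *Etfb*, *Hadhb*, *Pex11a* and *Vnn1* in liver and *Acadvl*, *Acot4*, *Bdh1*, *Echs1*, *Eci1*, *Eci2*, *Etfa*, *Hadhb* and *Pex11a* in BMDMs changed sign under at least 1 alternative. Genes of the longer lists were not recomputed. *Angptl4* stood at −0.02 in liver and became 0.0134 with library totals only and 0.0675 with the first letter of the sample code (−0.15 to 0.11 with a library left out). In BMDMs it stood at 0.00 and became 0.0905 with upper-quartile factors, 0.231 with library totals, 0.0205 with no filter, 0.0283 with a mean of at least 50 counts, 0.0749 with the replicate block and 0.0086 with all 12 libraries in a fit (−0.24 to 0.34 with a library left out). With a library left out, *Acot1* ran from −0.81 to 0.24 in liver.

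Members higher in liver at an unadjusted p under 0.05 were 1, against 794 of all 15062 genes tested. With upper-quartile factors they were 2 (901 of all genes), with library totals 3 (904) and with DESeq2 2 (769). With no filter they were 3, against 1048 of 23672 genes. With a library left out they were 1 to 3 (485 to 971 of all genes). Those lower were 3, against 780 of all genes, and 3 to 9 with a library left out (531 to 1158 of all genes). Under the other settings they were 2 to 4 (560 to 880 of all genes). At an adjusted p under 0.05 there was 1 with DESeq2, which called 269 genes in all. With edgeR and a library left out there were 0 to 1. In BMDMs those higher were 9, against 1189 of all 15372 genes tested, and 4 with library totals (1013 of all genes). With a library left out they were 3 to 11 (564 to 1683 of all genes). At an adjusted p under 0.05 there was 1 with DESeq2, which called 1223 genes in all. Those lower were 1 (1567 of all genes), and 0 with upper-quartile factors (1334) and 0 with library totals (1035). They were 2 with all 12 libraries (1946 of 17246 genes) and 0 to 2 with a library left out (731 to 2299 of all genes). Library totals moved the median of all genes in BMDMs to 0.17. For the difference between tissues, 2 were higher (1279 of all 17246 genes), and 1 with library totals (793 of all genes). With a library left out they were 0 to 3 (895 to 1859 of all genes). Those lower were 5 (1228 of all genes), and 3 to 10 with a library left out (917 to 1613). At an adjusted p under 0.05, 2 were lower with DESeq2, which called 774 genes in all. With edgeR and a library left out there were 0 to 1, and the median ran from −0.43 to −0.18. The median of liver against BMDM was 4.63 with upper-quartile factors and 3.91 with library totals (4.54 to 4.93). The cause of these moves was not tested.

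Same-numbered libraries did not deviate together in every pair (r = −0.07, 0.25 and −0.03 in liver, 0.14, 0.03 and 0.11 in BMDMs), so the numbers were not taken as pairs. With the replicate block, 4 members were lower and 1 higher in liver at an unadjusted p under 0.05, against 625 and 602 of 15062 genes. In BMDMs 8 were higher and 0 lower, against 1098 and 1337 of 15372 genes.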
